A study of Caenorhabditis elegans with 23 samples.

Results

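C38D9.2 and C38D9.13 are neighbouring genes on the plus strand of chromosome V in C. elegans, the first annotated as protein coding and the second as a non-coding RNA. The locus was taken as the 5 windows of 1 kb from V 17569001 to 17574000, out of 100257 windows in the deposited table. It was chosen with the measured levels known, because its RNA was high in hrde-1 mutants and after repair of hrde-1 in set-32 and met-2 set-25 mutants. Differences of these kinds are therefore given as a description, with no test. The mean level of the 5 windows was 1.13 RPKM (reads per kb of window, scaled to a common library size) in wild-type worms and 17.0 to 37.3 RPKM in hrde-1 mutants, and C38D9.2 was listed at 0 once hrde-1 had been repaired in worms with set-32, met-2 and set-25 all intact. After repair it lay above the level of the hrde-1 mutant of the same background in every sampled line that lacked set-32, or met-2 and set-25, or all of these. In some of these libraries the counting intervals of the 5-window mean overlapped those of the hrde-1 mutant. The share of all windows with this order was not counted, so the order is given as a description only.

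HRDE-1 is an Argonaute protein of the C. elegans germline that carries small interfering RNAs into the nucleus, where the nuclear RNAi pathway directs transcriptional silencing and histone H3 methylation at matching genes. This silencing can be inherited by later generations, and C38D9.2 is one of the endogenous targets of the pathway. MET-2 and SET-25 are methyltransferases for lysine 9 of histone H3, and SET-32 is a SET-domain protein that contributes to H3 methylation at nuclear RNAi targets. The question that the repaired lines address is whether a target that has lost its silencing can regain it when HRDE-1 comes back.

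The libraries hold total RNA of whole young adult hermaphrodites, depleted of ribosomal RNA and not selected for poly(A), with 1 library for each genotype and generation among 23 samples. The 19 libraries used here fall into 3 states of hrde-1, and 4 more, from generation F20, were not analysed here. The first state, hrde-1 never mutated, has 5 libraries: N2, the wild-type strain, met-2(n4256) set-25(n5021), set-32(ok1457), set-32(red11), and set-32(ok1457) with met-2(n4256) set-25(n5021). In another 5 hrde-1 carried the tm1200 mutation, alone, with met-2(n4256) set-25(n5021), with set-32(ok1457), with set-32(red11), or with set-32(red11) and met-2(n4256) set-25(n5021). In the remaining 9 it had been repaired, labelled hrde-1(+R), and worms were sampled some generations later: at F4 and F5 with no other mutation, at F3 and F5 with met-2(n4256) set-25(n5021), at F5 and F8 with set-32(ok1457), at F4 and F5 with set-32(red11), and at F5 with set-32(red11) and met-2(n4256) set-25(n5021). The alleles of met-2 and set-25 are left out of the names from here on. Strains that lack set-32, met-2 and set-25 together are called compound mutants here. The never-mutated compound mutant carries set-32(ok1457), whereas the tm1200 and repaired ones carry set-32(red11), so allele and hrde-1 state are not crossed there. Separate cultures are not mentioned in the labels, and whether the later generations of a repaired line descend from the worms sampled earlier is not stated either. SDs and p-values therefore measure only how far these libraries spread.

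The values were read against depth and against the labels. The libraries held 458716 to 1152817 reads in the denominator, estimated from the step between values, so 1 read in a window was worth 0.867 to 2.18 RPKM. Intervals given below for a library are exact Poisson intervals at 95% on its reads and cover counting error only. At the window of each mutated gene with the largest fall, chosen after its values were seen, carriers and other libraries did not overlap, for hrde-1 (means of 71.1 and 224 RPKM), set-32 (3.18 and 13.1), met-2 (1.5 and 41.2) and set-25 (0 and 31.6). At the highest window of each gene with any fall, the choice first planned, they overlapped for hrde-1, set-32 and set-25 and not for met-2. All 33 listed marker genes of germline, sperm, oocyte and eggshell, intestine, muscle and cuticle were detected. Their summed levels overlapped between the states; for the 4 germline markers they ran from 243 to 419 RPKM in never-mutated libraries, from 297 to 387 with tm1200 and from 285 to 459 after repair. Among repaired libraries, F4 with no other mutation lay below the mutants for germline markers (285 against 338 to 459 RPKM). It also did for oocyte and eggshell (1254 against 1608 to 2158), and it lay above them for cuticle (2347 against 830 to 2178). The F5 library with no other mutation, at 403 RPKM for germline, lay within the range of the mutants in every set. In whole worms, RNA in fewer cells and less RNA per cell cannot be told apart.

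C38D9.2 (WBGene00008010) spans V 17567150 to 17571742 in the WBcel235 annotation, with 4 transcripts whose exons merge into 8 blocks of 3834 bp. C38D9.13 (WBGene00235090) spans V 17573208 to 17574227, with 4 exon blocks of 834 bp. The build of the table is not given in the sources used here, and gene positions are taken from WBcel235 after a check of exon density along the table. That check was weak here: in the stretch of V with the locus the correlation of window level and exon density was 0.123 at its best shift, 100 bp, and 0.12 with none, and in the stretch before it the best was -0.124, at a shift of 4400 bp. Statements on exons, the start codon and the borders of both genes hold only as far as these positions do. The annotated start codon of C38D9.2 at V 17569380 and its stop codon at V 17571601 fall in the first and the last of 3 consecutive windows. These are V 17569001 to 17570000 (587 bp of exon), called the start-codon window here, V 17570001 to 17571000 (771 bp), the middle window, and V 17571001 to 17572000 (642 bp), the end window. The fourth, V 17572001 to 17573000, holds no annotated exon. The fifth, V 17573001 to 17574000, holds 607 bp of C38D9.13 exon.

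RNA in the region was spread unevenly over the gene models. Over the 19 libraries the middle window averaged 57.4 RPKM, the end window 41.9, the start-codon window 22.3, the C38D9.13 window 5.93 and the window between the genes 0.72. On these positions the annotated upstream exons of C38D9.2 carried almost none of this RNA. The window just before the start-codon window is exon throughout and averaged 1.25 RPKM with a highest value of 4.75, and the one before that, with 834 bp of exon, was listed at 0 in all 19 libraries. Just past the C38D9.13 window, the window with the last 227 bp of its exons averaged 1.24 RPKM. Apart from these flanks, no window within 10 kb on either side passed 1.19 RPKM in any library. That stretch includes fbxa-172 and fbxa-171, genes of the F-box family.

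**Figure D1:**
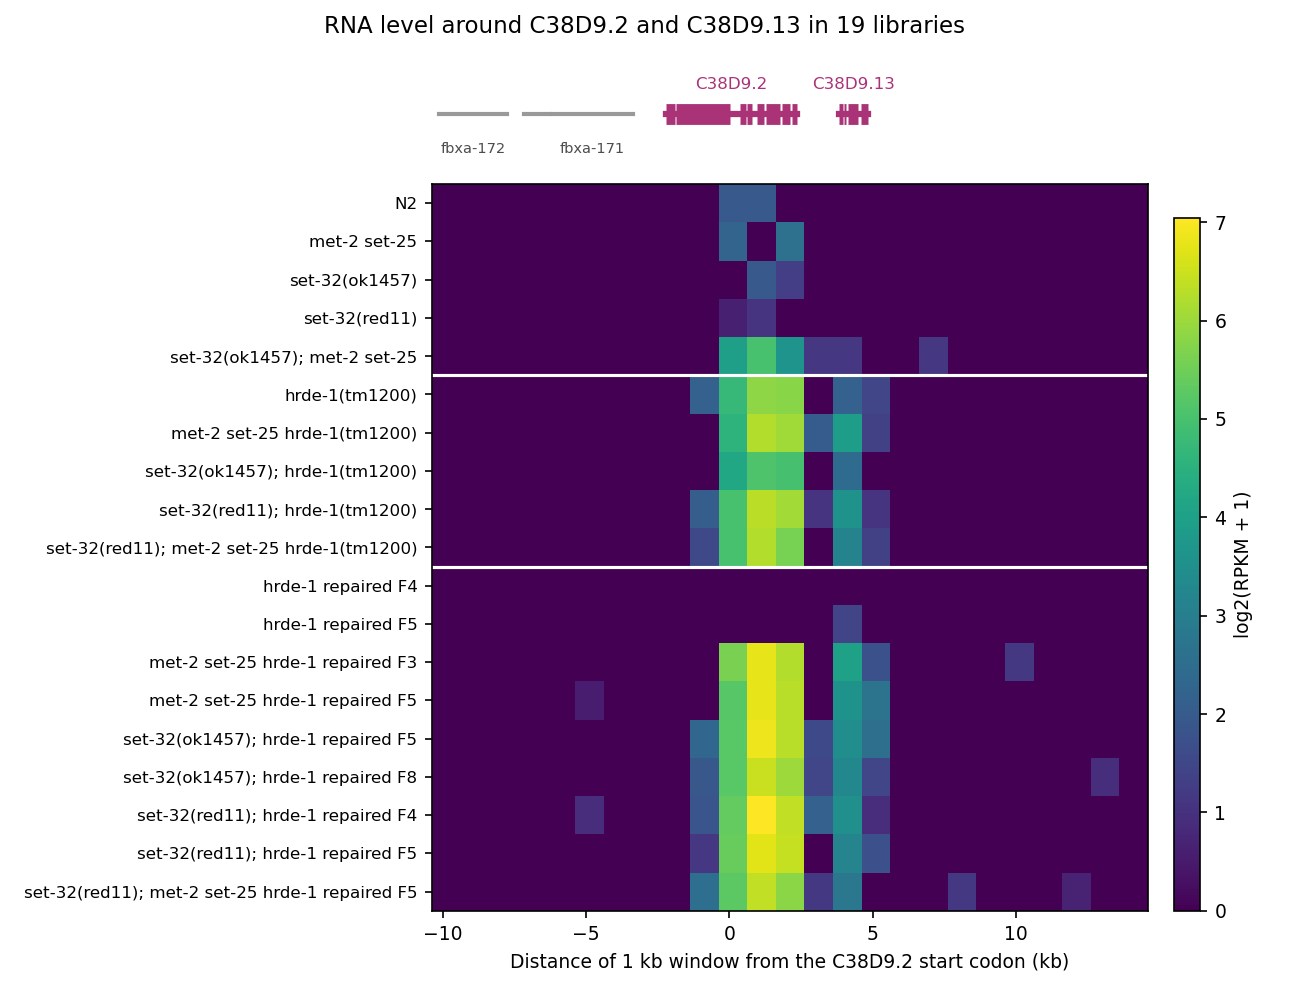
RNA level as log2(RPKM + 1) in 1 kb windows (columns, by distance of the window from the annotated C38D9.2 start codon) for each of 19 libraries (rows, grouped by white lines into never mutated, tm1200 and repaired), with gene models drawn to scale and exons of C38D9.2 and C38D9.13 as blocks. Signal fills the 3 windows from the start codon on in tm1200 and in the 7 repaired mutant libraries, whereas both repaired libraries with no other mutation are dark there.

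In the authors' table, 4 of the 5 windows carry a yes mark headed GRTS, a mark that 191 windows have in all and whose making is not described. The C38D9.13 window does not carry it. Values in the middle and end windows and in the C38D9.13 window were whole multiples of 1 read in every library with a value above 0. In the start-codon window only 43.8% of such values were whole and the others were parts of a read, so its level is less certain than those of the other members.

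Worms that had never lost hrde-1 kept C38D9.2 close to silent, with 1 exception. The mean over the 5 windows was 1.13 RPKM in N2, 1.76 in met-2 set-25, 0.86 in set-32(ok1457) and 0.33 in set-32(red11), resting on 4, 7, 3 and 2 reads. Over these 4 libraries it was 1.02 ± 0.594 RPKM (SD, n = 4), and the C38D9.13 window was listed at 0 in all 4. The never-mutated compound mutant stood apart at 11.9 RPKM, from 52 reads (interval 8.95 to 15.7). It read 14.4, 31.1 and 11.5 RPKM in the start-codon, middle and end windows, 1.15 between the genes and 1.15 at C38D9.13. Its 3 C38D9.2 windows summed to 57.0 RPKM, 11.2 times the mean of the other 4. The 4 members that passed the filter on low values lay, in this library, above the other never-mutated libraries by at least 1 on the log2(RPKM + 1) scale, as 0.883% of all tested windows did, but C38D9.13 did so on 1 read and passed that filter only through the tm1200 and repaired mutant libraries. At the mutated loci it matched its label: its hrde-1 window read 202 RPKM, within the range of libraries with intact hrde-1, while set-32 read 1.15 and met-2 and set-25 were listed at 0.

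With hrde-1(tm1200) all 3 C38D9.2 windows were on in every library, while the window between the genes stayed at 0 in 3 of 5 and averaged 0.836 RPKM. The region mean was 27.8 RPKM (interval 22.2 to 34.9) in hrde-1(tm1200) alone, 35.8 with met-2 set-25, 17.0 with set-32(ok1457), 37.3 with set-32(red11) and 32.0 in the compound mutant. All 5 lay above every never-mutated library, and the group mean was 30.0 ± 8.13 RPKM (SD, n = 5) against 3.19 ± 4.88 (n = 5). The middle window read 56.0, 74.3, 32.7, 77.9 and 74.0 RPKM in the same order, and the end window 54.3, 65, 30.5, 66.0 and 47.3. The library with set-32(ok1457) was lowest in all 3 C38D9.2 windows. The C38D9.13 window read 3.50, 13.9, 4.36, 10.8 and 7.88 RPKM, from 2, 9, 2, 10 and 5 reads, against 0 or 1 read in never-mutated libraries. This window passed the filter on low values only through the tm1200 and repaired mutant libraries. The locus was also chosen on the difference between tm1200 and never-mutated libraries, so nothing is read from the lack of overlap.

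Fitted over the 10 libraries with no repair, with set-32 and met-2 set-25 as further terms, the log2(RPKM + 1) values were higher with tm1200 by 2.94 ± 0.46 (SE) in the start-codon window, 3.94 ± 0.51 in the middle window, 4.19 ± 0.43 in the end window and 2.82 ± 0.51 in the C38D9.13 window. The fit was made across the 41323 windows that averaged 1 RPKM or more, a level that 4 of the 5 members reached and the window between the genes did not. A window was called at an adjusted p under 0.05 in limma together with a log2 fold change of 1 or more in size. All 4 tested members were called higher, beside 0.370% of all tested windows, but the locus was chosen on this difference and nothing is read from that count. The median change was 3.44 for the 4 members and -0.04 for all windows.

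**Figure D2:**
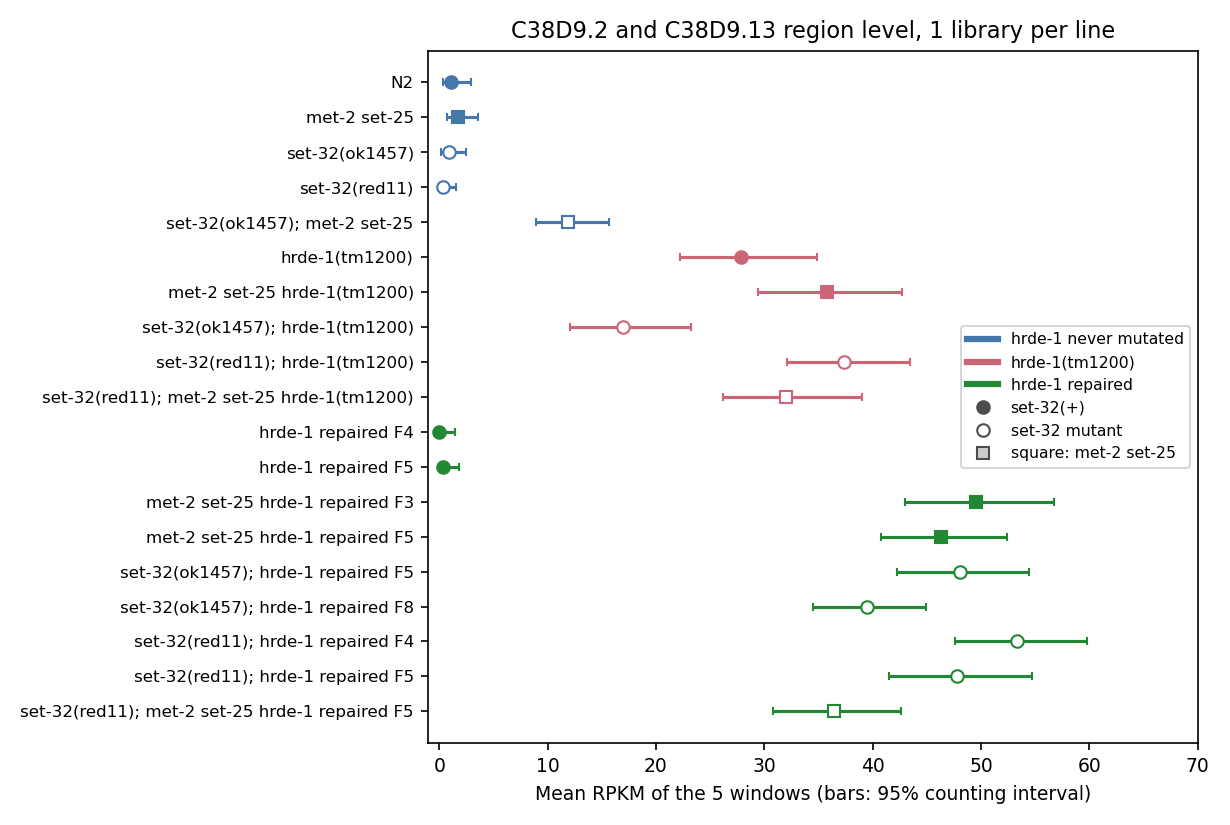
Mean RPKM over the 5 windows in each of 19 libraries (points; bars are 95% counting intervals), coloured by hrde-1 state, filled for set-32(+), open for set-32 mutants and square for met-2 set-25. The tm1200 libraries sit between 17.0 and 37.3, the 7 repaired mutant libraries between 36.5 and 53.3, and both repaired libraries with no other mutation at or below 0.332.

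The state of set-32, met-2 and set-25 could be tested among the 10 libraries with no repair, since the choice of the locus did not use that difference. None of the 4 tested windows passed for set-32 loss, where 0 of 41323 windows were called (0.00%, with 1468 at an unadjusted p under 0.05). The region mean differed by 0.28 ± 0.45 (log2, SE; limma adjusted p = 1.00), and the largest difference was 0.91 ± 0.52 in the middle window. Leaving out the never-mutated compound mutant turned the direction, to -0.27. Within tm1200 the set-32 mutants averaged 28.8 ± 10.5 RPKM (n = 3) and the set-32(+) libraries 31.8 ± 5.59 (n = 2), and these overlapped.

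For met-2 set-25 loss with no repair, again none of the 4 windows passed, beside 0.0702% of all tested windows called in either direction. The region mean was higher by 1.11 ± 0.45 (limma adjusted p = 0.751, unadjusted p = 0.0187), and the end window by 1.49 ± 0.44 (adjusted p = 0.507, unadjusted p = 0.00242). The difference rests largely on 1 library: it was 0.38 without the never-mutated compound mutant. In met-2 set-25 with set-32 intact, at 1.76 RPKM, the counting interval overlapped that of N2. Within tm1200, met-2 set-25 libraries read 32.0 and 35.8 RPKM and the other 3 ran from 17.0 to 37.3, so these overlapped too.

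The effect of tm1200 itself was not shown to depend on the other mutations. Between hrde-1 and set-32 the interaction was -0.59 ± 0.90 for the region mean (limma adjusted p = 1.00), with 0 windows called among all tested (0.00%, with 1266 at an unadjusted p under 0.05). Its direction turned, to 0.31, without the never-mutated compound mutant. The interaction with met-2 set-25 was -1.41 ± 0.86 for the region mean (adjusted p = 1.00), with 0.00242% of windows called, none of them a member, and it shrank to -0.18 without that library. By window it was -2.48 ± 0.76 in the end window (unadjusted p = 0.00315) and -2.11 ± 0.88 in the start-codon window (unadjusted p = 0.0246), against -0.35 ± 1.07 in the middle window and 0.25 ± 1.06 at C38D9.13. After adjustment by limma p was 1.00 for each. Standard errors of this size leave room for differences of several fold.

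After repair of hrde-1 with no other mutation the locus was listed at 0. All 5 windows were at 0 at F4, and at F5 the only signal was 1 read in the C38D9.13 window, 1.66 RPKM. The 3 C38D9.2 windows together held 0 reads in both libraries, against 78 reads (136 RPKM summed) in hrde-1(tm1200). With 3 reads as the limit for a count of 0, up to 6.06 RPKM in that sum is allowed (the 2-sided Poisson interval reaches 7.45), and against this limit the tm1200 mean of 141 ± 36.6 RPKM (n = 5) was at least 23.3-fold higher. The levels of the 4 low never-mutated libraries, 1.65 to 8.79 RPKM in the same sum, lay below that limit in 3 of the 4. The limit is that of the F4 library. For the deeper F5 library it is 4.97 RPKM, and N2, at 5.66, lay above it. Whether the low never-mutated and the repaired libraries differ was not tested.

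In met-2 set-25 mutants with set-32 intact, repair left the locus on. The region mean was 49.5 RPKM at F3 (208 reads, interval 43.0 to 56.7) and 46.3 at F5 (254 reads, interval 40.8 to 52.4). The start-codon, middle and end windows read 48.8, 110 and 73.8 RPKM at F3 and 35.5, 108 and 76.6 at F5, and C38D9.13 read 15.5 and 10.9. Both libraries lay above all tm1200 libraries in the region mean, and their intervals overlapped each other. The summed C38D9.2 windows, at 226 ± 8.16 RPKM (n = 2), were at least 37.3-fold above both repaired libraries with no other mutation, against the same limit of 3 reads.

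In set-32 mutants the locus was on after repair with either allele. The region mean was 48.0 RPKM at F5 and 39.4 at F8 for ok1457, and 53.3 at F4 and 47.8 at F5 for red11. The middle window read 115 and 86.8 RPKM for ok1457 and 131 and 105 for red11, the end window 77.8 and 64.0, then 82.4 and 84.2. All 4 libraries lay above every tm1200 library in the region mean. The alleles overlapped, at 43.7 ± 6.07 RPKM (n = 2) for ok1457 and 45.9 ± 8.61 (n = 3) for red11 with its met-2 set-25 line included. At C38D9.13 these libraries read 9.72, 8.76, 10.4 and 8.08 RPKM.

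With set-32, met-2 and set-25 all lost, the level after repair was no higher than in the other mutant lines. The repaired compound mutant, with set-32(red11), read 36.5 RPKM at F5 (153 reads, interval 30.8 to 42.6), the lowest of the 7 repaired mutant libraries, with 37.4, 81.9 and 55.8 RPKM in the C38D9.2 windows and 5.94 at C38D9.13. Its interval overlapped those of set-32(red11) at F5 (41.5 to 54.7) and met-2 set-25 at F5 (40.8 to 52.4). So met-2 set-25 libraries stood 47.7 RPKM above those without these mutations when set-32 was intact, and 10.7 RPKM lower (36.5 against a mean of 47.1) when set-32 was mutated. The second difference rests on 1 library.

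Fitted over the 9 repaired libraries with met-2 set-25 as a further term, set-32 mutants were higher by 3.48 ± 0.65 (log2, SE) in the start-codon window, 4.38 ± 0.81 in the middle, 4.05 ± 0.76 in the end window and 1.43 ± 0.57 at C38D9.13. Of the 4 members, 2 were called higher, beside 0.0750% of all tested windows. The term for met-2 set-25 was 2.84 ± 0.71 for the region mean, and 0 of 4 members were called higher, beside 0.00484% of all windows. These terms assume that both losses add up on the log2 scale. Allowing an interaction gave -5.76 ± 0.53 for the region mean and -7.18 ± 0.45 for the middle window, with 3 of 4 members called lower, beside 0.00968% of windows. Without the repaired compound mutant the 2 terms became 5.37 for set-32 and 5.40 for met-2 set-25. Both contrasts share the 2 repaired libraries with no other mutation, and the locus was chosen on them, so these are descriptions.

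In each repaired mutant line sampled at an earlier and a later generation, the locus was still on at the later one. From F3 to F5 the region mean of met-2 set-25 went from 49.5 to 46.3 RPKM, from F4 to F5 that of set-32(red11) from 53.3 to 47.8, and from F5 to F8 that of set-32(ok1457) from 48.0 to 39.4. The later value was the lower one in all 3 lines, but the counting intervals overlapped in each, as 42.2 to 54.4 and 34.5 to 44.9 did for ok1457. A limma fit with the line as a block, added after the values were seen, compared the later with the earlier generation over the 4 lines that have both, the line with no other mutation included. The region mean differed by -0.03 ± 0.28 (log2, SE; adjusted p = 1.00), and none of the 4 members or of all tested windows was called (0.00%, with 1486 at an unadjusted p under 0.05). The sign of so small a difference turned in some settings, to 0.05 without set-32(ok1457) and to 0.01 without set-32(red11). Leaving out F4 or F5 of the line with no other mutation gave -0.176 instead.

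**Figure D3:**
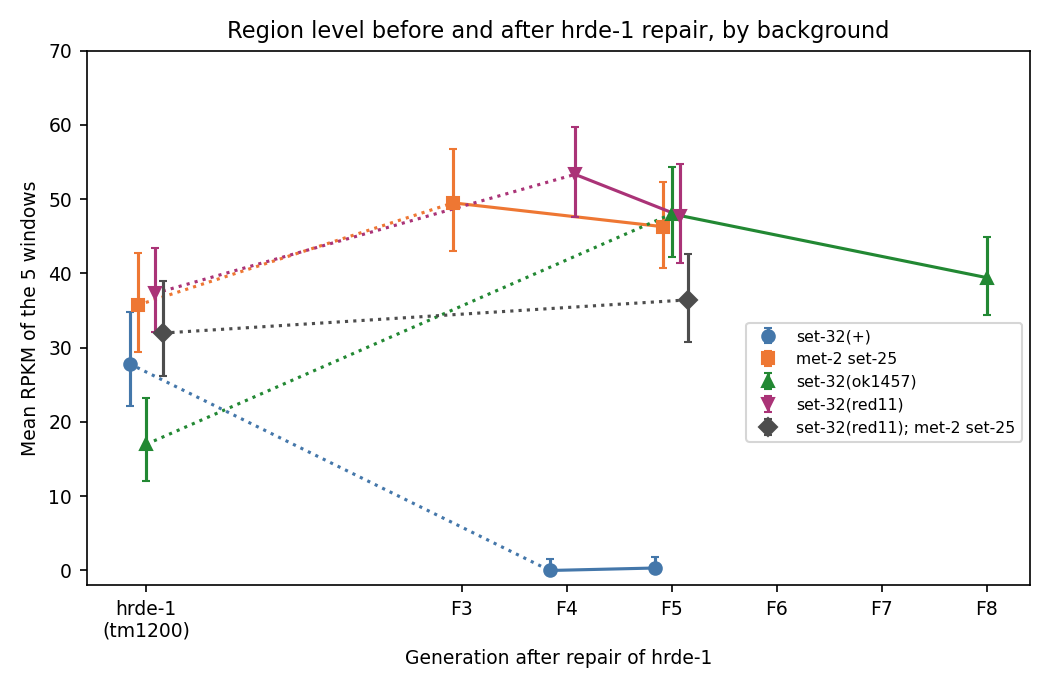
Mean RPKM over the 5 windows (points; bars are 95% counting intervals) in the tm1200 library of each background and in its repaired line at the generations sampled, joined by dotted lines from tm1200 to the first repaired library and solid lines between repaired ones. The line with no other mutation falls from 27.8 to 0, whereas the other 4 backgrounds stay between 36.5 and 53.3 after repair.

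Each of the 7 repaired mutant libraries read above the tm1200 library of its own background. The counting intervals overlapped for the compound mutant (30.8 to 42.6 against 26.2 to 39.0 with tm1200). They also did for met-2 set-25 at F5 (40.8 to 52.4 against 29.4 to 42.7) and set-32(red11) at F5 (41.5 to 54.7 against 32.1 to 43.4). The share of all windows with this order was not counted, so nothing is read from the count. The ratio of region means was 1.38 and 1.29 for met-2 set-25, 2.83 and 2.32 for set-32(ok1457), 1.43 and 1.28 for set-32(red11) and 1.14 for the compound mutant. The large ratios of ok1457 come with the lowest tm1200 library, 17.0 RPKM from 39 reads. As a share of the rise from never-mutated to tm1200 libraries, which sets these groups at 0% and 100%, the level was 156% ± 25.8 (SD, n = 5) in repaired set-32 mutants and 167% ± 8.48 (n = 2) in repaired met-2 set-25 with set-32 intact. It was -11.3% in the repaired libraries with no other mutation, and -2.95% when the compound mutant was left out of the never-mutated mean. In order of group means the levels ran from repaired with no other mutation and the 4 low never-mutated libraries, whose counting intervals overlapped, through the never-mutated compound mutant and tm1200, to the repaired set-32 mutants and repaired met-2 set-25. Those last groups, at 45.0 ± 6.90 and 47.9 ± 2.27 RPKM, overlapped.

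C38D9.13 was detected in every library with C38D9.2 on, at a small fraction of its level, and in 1 other, repaired at F5 with no other mutation, by 1 read. Across 13 libraries with at least 30 RPKM summed over the C38D9.2 windows, the C38D9.13 window read 2.02% to 8.61% of that sum, with a mean of 4.74%. It was 5.6% ± 2.17 (SD, n = 5) with tm1200 and 3.99% ± 0.542 (n = 5) in repaired set-32 mutants, and these overlapped. The C38D9.13 window rested on 1 to 13 reads in these 13 libraries, so its ratio to the neighbour is imprecise. Unlike C38D9.2, which lay above its own-background tm1200 level in 7 of 7 repaired mutant libraries, C38D9.13 did so in 3 of 7, with ratios from 0.747 to 2.23. The difference between the genes in this respect was not tested. Over the 19 libraries the log2 levels of the C38D9.13 window and the summed C38D9.2 windows had a Pearson correlation of 0.874 (Spearman 0.845), and over the 13 of 0.846 (Spearman 0.648), where library and depth are shared by both values.

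**Figure D4:**
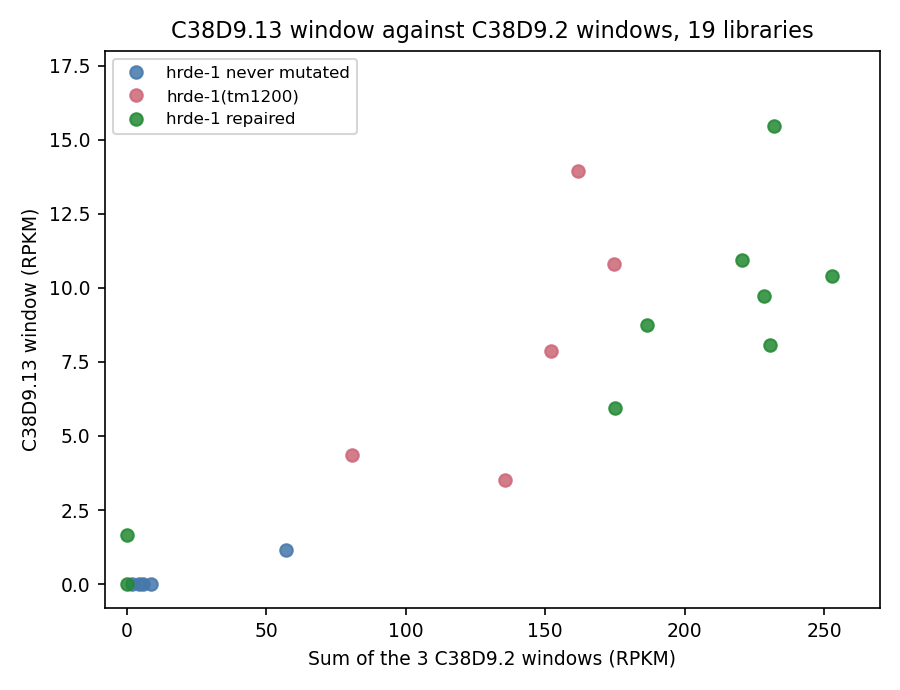
RPKM of the C38D9.13 window (vertical) against the sum of the 3 C38D9.2 windows (horizontal) in 19 libraries, coloured by hrde-1 state. Libraries near 0 on the horizontal axis are near 0 on the vertical one, and among those with C38D9.2 on, C38D9.13 runs from 1.15 to 15.5 RPKM.

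The distribution of signal along C38D9.2 was alike wherever it was on. Over the 13 libraries, 18.8% of the summed RPKM lay in the start-codon window, 47.1% in the middle and 34.1% in the end window. The end window held 37.4% ± 3.70 (SD, n = 5) with tm1200 and 33.9% ± 1.79 (n = 5) in repaired set-32 mutants, and the ranges, 31.1% to 40.2% and 31.9% to 36.5%, overlapped. The never-mutated compound mutant had the lowest share in the end window, 10 of 50 reads, with an exact binomial interval of 10.0% to 33.7% that reaches into the range of the other libraries.

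Among listed nuclear RNAi targets, C38D9.2 had the largest difference after repair in met-2 set-25. The list has 11 genes, chosen with earlier results of these data known, and a gene's level here is the mean over windows with at least 250 bp of its exons, which for C38D9.2 takes in the near-empty upstream windows. In the 2 repaired met-2 set-25 libraries with intact set-32, 5 of 11 lay above both repaired libraries with no other mutation. Of all tested windows, 20.9% met that order, and the list was chosen with results known, so nothing is read from the count. For 2 of these 5 genes the log2 difference of group means was at least 3. These were C38D9.2, at 45.3 RPKM against a listed level of 0 (5.53), and F15D4.5, at 14.6 against 0.89 (3.05). The other 3 were scrm-4, which encodes a scramblase family protein (3.52 against 0.415 RPKM), R03H10.6 (5.80 against 0) and E01G4.5 (12.5 against 7.15). Several targets that were high in repaired set-32 mutants were low here. F07B7.1 read 1.19 RPKM in met-2 set-25, 1.24 with no other mutation and 70.7 in set-32 mutants, and sosi-1 read 1.40, 1.56 and 22.8.

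The same list in repaired set-32 mutants had 8 of 11 genes above both libraries with no other mutation, 7 of them by at least 3 on the log2 scale, and C38D9.2 read 43.6 RPKM there. Limma called 8 of the 11 targets higher in at least 1 window after repair in set-32 mutants, and 8 higher with tm1200, C38D9.2 among them each time. For met-2 set-25 after repair under the additive fit it called 0 of 11 higher, beside 0.00484% of windows, and for the interaction C38D9.2 and F15D4.5 lower, beside 0.00968%. The locus and the list were chosen with these contrasts known, so nothing is read from these counts. Over the targets' tested windows the median log2 change was 2.62 with tm1200, 3.23 for set-32 and 0.40 for met-2 set-25 after repair, beside medians of -0.04, 0.03 and 0.04 over all windows. Of 22 listed factors of the pathway, hrde-1 fell with tm1200, met-2 and set-25 fell in met-2 set-25 libraries with and without repair, and none was called for set-32 after repair. In the never-mutated compound mutant, 3 of 11 targets lay above the other 4 libraries, C38D9.2, scrm-4 (6.92 against a highest value of 5.02 RPKM) and bath-45 (4.61 against 4.30). Of all tested windows, 16.3% did so, and the count is read as no more than that. F07B7.1 and sosi-1 did not, at 0.58 and 1.53 RPKM.

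**Figure D5:**
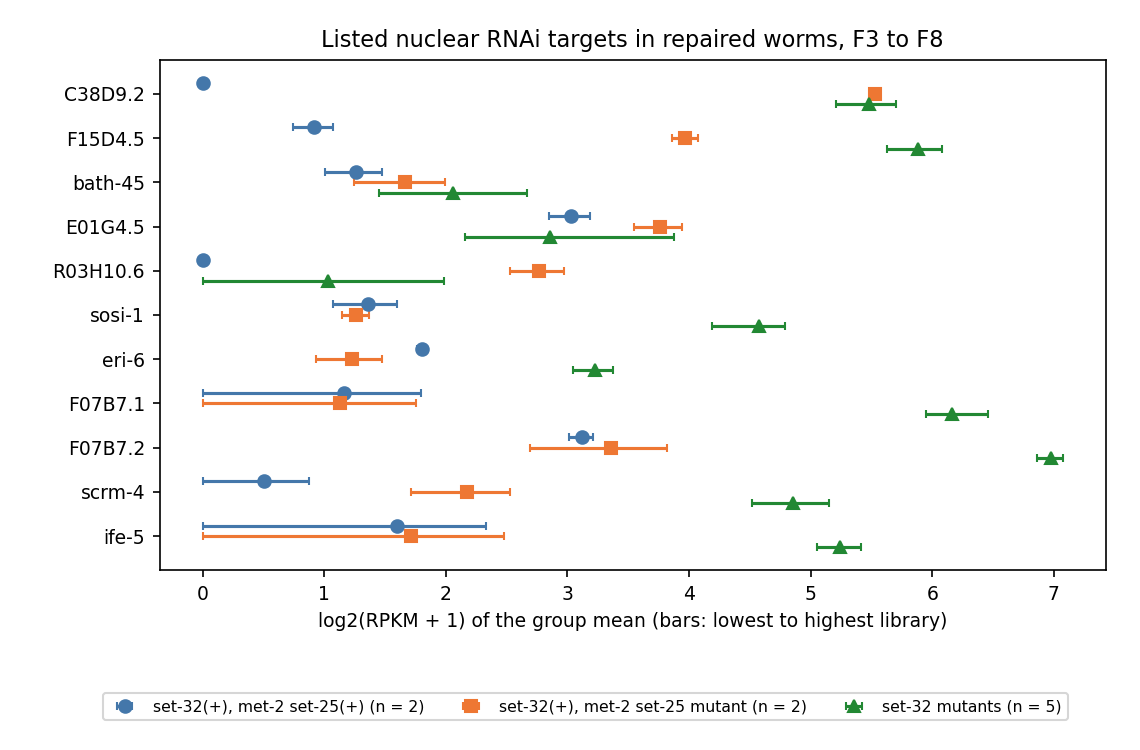
Level of 11 listed nuclear RNAi targets in repaired worms, as log2(RPKM + 1) of the group mean, with bars from the lowest to the highest library, for worms with no other mutation, with met-2 set-25 mutated and with set-32 mutated. The orange and green symbols coincide only at C38D9.2 among targets far above the blue ones, while F07B7.1, F07B7.2 and sosi-1 are high in set-32 mutants alone.

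Few windows elsewhere behaved in this way in met-2 set-25 after repair. In 16 of 41323 tested windows (0.0387%) both met-2 set-25 libraries lay above both libraries with no other mutation by at least 3 on the log2 scale, and 3 of the 16 were the C38D9.2 windows. The plain order, both above both, was met by 20.9% of windows and by all 4 tested members, so the order alone carries little. The 13 others averaged 7.22 to 29.2 RPKM in met-2 set-25, below all 3 C38D9.2 windows at 42.2, 109 and 75.2. The highest of them, at pud-4 on V 2327001 to 2328000, read 29.2 RPKM in met-2 set-25 but 2.23 in repaired set-32 mutants and 2.18 with tm1200. By contrast, IV 2908001 to 2909000 read 15.4, 8.15 and 8.24 RPKM in these groups, against 0.24 with no other mutation. Never mutated, it read 10.4 in the compound mutant and averaged 1.14 in the other 4. V 17642001 to 17643000 read 7.845, 4.37 and 5.01 RPKM, against 0. Whole reads made up 0% and 17.6% of the values above 0 in these windows. In repaired set-32 mutants, all 5 libraries lay above both by at least 3 in 16 windows too (0.0387%), including the same 3 members. The locus was chosen on both of these differences, so nothing is read from its place in these counts.

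The windows whose profile over the 19 libraries was most like that of the locus held no gene with at least 250 bp of annotated exon. Introns and shorter stretches of exon were not looked at there. By Pearson correlation of log2(RPKM + 1) with the region mean, the 8 highest regions had values from 0.962 to 0.980, the highest at IV 702001 to 705000. Their levels averaged 6.27 to 13.4 RPKM with tm1200, 0.14 to 2.60 after repair with no other mutation and 7.33 to 12.9 in the repaired mutants. At most 11.8% of their values were whole reads and the others were parts of a read; whether the 8 share reads was not tested. Among windows with whole reads only, an alternative added after the values were seen, none reached 0.9, and the highest was 0.84 at II 1372001 to 1373000. The window of scrm-4 at I 11682001 to 11683000 followed at 0.835.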

How the data were processed

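The authors deposited RPKM values for 100257 windows of 1 kb, made with Bowtie 0.12.7 according to the submitters' processing notes. Genome build, treatment of reads with several matches and strand use are not given in the sources; without strand, sense and antisense RNA cannot be told apart. Of the table's columns, 24 belong to other samples and were not used. The value of 1 read was found from the steps between low values; 81.1% to 85.0% of positive values under 60 RPKM were whole multiples of it, within 0.0051 RPKM. The others are parts of a read, so no count test was run.

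Windows that averaged 1 RPKM or more over 19 libraries (41323), and the mean of the 5 members, were fitted with limma 3.58.1 (lmFit, then eBayes with a trend; R 4.3.3) on log2(RPKM + 1), a scale that understates changes of low windows, with Benjamini-Hochberg adjustment over all of them. Strains that share a state served as replicates, as each genotype and generation has 1 library. The 10 libraries with no repair and the 9 repaired ones were fitted separately, as were, after the values were seen, 4 repaired lines by generation; the fit was tested on simulated data. Gene positions come from WBcel235. Of 197 segments of 500 windows, 188 matched its exon density best at a shift of at most 100 bp. The segment with this locus matched only weakly.

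Named were the 5 members, neighbours within 10 kb, the 8 regions of most like profile and 1 window per mutated gene. Listed targets were named, as were listed factors past the threshold. After their values were seen, pud-4, the windows given beside it and windows of whole reads were named too. Members, lists and tests were chosen with earlier results of these data known. Alternatives changed the pseudocount, filter, scaling, libraries, alleles and windows.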

Additional observations from a re-analysis of the deposited data

Results flagged for a closer look

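The never-mutated compound mutant, set-32(ok1457) with met-2 set-25, stood far from the other 4 never-mutated libraries, by the gap to its nearest neighbour as a share of the range. The region mean was 11.9 RPKM (11.864 before rounding), against 0.33 to 1.76 in the others. The gap was also large in the start-codon window (14.4 RPKM), the middle window (31.1), the window between the genes (1.15) and the C38D9.13 window (1.15), the last pair resting on 1 read each. These are 5 of 23 checks. In the window between the genes and the C38D9.13 window the other 4 libraries were at 0, so 1 read was enough to meet the check. How often counts this low meet such a check by chance was not tested. All 5 concern 1 library, and the region mean is made of the same windows, so they are not independent. Its hrde-1 window, at 202 RPKM, was in the range of libraries with intact hrde-1. Over all tested windows, this library lay above the other 4 by at least 1 on the log2 scale in 0.883% of windows, and all 4 tested members did so.

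After repair, the difference between met-2 set-25 and met-2 set-25(+) libraries in region mean was 47.739 RPKM with set-32 intact (2 against 2 libraries) and -10.69 RPKM in set-32 mutants (1 against 4). Every library moved in the direction of its set in the first case. The contrast between the directions was fitted as the interaction after repair, at -5.76 for the region mean on the log2 scale. It rests on 1 repaired compound mutant library and is a description with no test.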

How the results depend on the processing

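Values are for the region mean on the log2 scale. None of 88 alternatives to the 5 tested results was called, with adjusted p from 0.676 to 1.00. For set-32 loss without repair the direction turned with red11 alone (-0.214), without met-2 set-25 libraries (-0.287) and without the never-mutated compound mutant (-0.272); its leave-one-out range was -0.272 to 0.573. The hrde-1 by set-32 interaction turned in the same settings (0.909, 0.304 and 0.308; leave-one-out -1.073 to 0.308). The difference between generations turned with pseudocount 0.1 (0.393) and quantile normalization (0.088), and its leave-one-out range was -0.176 to 0.054. Leaving out 1 library gave 0.38 to 1.452 for met-2 set-25 without repair and -2.65 to -0.177 for its interaction with hrde-1. Of the described differences none changed direction, and 59 of 70 alternatives moved them by less than the residual SD of their fit, which for the additive fits after repair is wide and takes in set-32 with pseudocount 5 (2.102) and met-2 set-25 with pseudocount 5 (1.721). The others were tm1200 with pseudocount 5 (2.209; leave-one-out 3.172 to 3.909), set-32 after repair with pseudocount 0.1 (5.083), ok1457 alone (5.27) and without met-2 set-25 libraries (5.374; leave-one-out 2.644 to 5.374), met-2 set-25 after repair (leave-one-out 2.169 to 5.404), and the interaction after repair with pseudocount 0.1 (-8.212), pseudocount 5 (-3.681) and quantile normalization (-5.27; leave-one-out -5.965 to -5.552). The share of the tm1200 rise was 182.99% in repaired met-2 set-25 from the middle window alone. In repaired worms with no other mutation it was -13.68% from that window, -9.991% from the median window, -9.57% without the window of divided reads and -2.949% when the never-mutated compound mutant was left out. With whole-read windows only, 0 regions reached a correlation of 0.9. The interaction after repair could not be fitted without the repaired compound mutant or with ok1457 alone. No paired analysis was possible because the labels give no replicate numbers; with the 4 strain backgrounds that occur both never mutated and with tm1200 as a block, an alternative added after the values were seen, tm1200 was higher by 3.904, with 120 windows called. Counts of called windows over the whole table, in either direction, moved more: 163 for tm1200 (6 to 198 over the alternatives), 31 for set-32 after repair (6 to 58), 11 for met-2 set-25 after repair (5 to 77) and 5 for their interaction (3 to 1490). Without repair they were 0 for set-32 (0 to 9), 29 for met-2 set-25 (2 to 35), 0 for hrde-1 by set-32 (0 to 224), 1 for hrde-1 by met-2 set-25 (0 to 287) and, between generations, 0 (0 to 0). The lowest count for tm1200 and the highest ones for both met-2 set-25 results after repair and both hrde-1 interactions came with no filter on low windows. The causes of these shifts were not tested.

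Depth limits the low end: 3 reads in 1 window come to 2.60 to 6.54 RPKM, so differences below that among silent libraries were not detectable.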
